A study of Mus musculus with 12 samples.

Results

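The genes described here are 7 that mark regulatory T cells: Foxp3, Il2ra, Ikzf2, Tnfrsf4, Tnfrsf18, Tnfrsf9 and Ccr8. They were taken by symbol from a table of 24319 gene entries, and all 7 were among the 11978 entries that reached 1 FPKM in at least 3 libraries and were tested. FPKM is a fragment count scaled by transcript length and library size. Levels are thus relative to the rest of the library, and compare between libraries only as far as that rest is alike.

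RNA was measured in CD45-positive cells captured with antibody-coated magnetic beads from livers of C57BL/6 mice. Every mouse, the controls included, had received human c-Myc and N-ras genes by hydrodynamic transfection on day 0. The 4 groups held 3 libraries each. Combination mice received polyIC, a synthetic double-stranded RNA, at 4 mg/kg into the peritoneum on days 14, 16, 18, 20 and 22, and a PD-L1 antibody at 200 µg on days 17, 19 and 21. The polyIC group received the same polyIC with 200 µg of IgG in place of the antibody. The antiPDL1 group received PBS in place of polyIC and the same antibody. Control mice received PBS and IgG on the same days. Livers were taken on day 24 by the treatment protocol, although the time label reads day 22. The labels do not say whether the libraries of a group came from separate mice, so p-values measure the spread between these libraries, which may be technical. The captured cells are a mixture, and in such bulk RNA fewer cells of a type and less RNA per cell cannot be told apart.

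Regulatory T cells are CD4-positive T cells that restrain immune responses, and Foxp3 is the transcription factor that defines them. Ikzf2 encodes Helios, a zinc finger transcription factor found in many of these cells. Il2ra encodes CD25, the chain that gives the interleukin 2 receptor its high affinity, and regulatory T cells depend on interleukin 2 made by other cells. Tnfrsf4 (OX40), Tnfrsf18 (GITR) and Tnfrsf9 (4-1BB) are costimulatory receptors of the TNF receptor family. Ccr8 is a chemokine receptor that is known from regulatory T cells inside tumours. Apart from Foxp3, these genes are also used by other activated lymphocytes: OX40, GITR, 4-1BB and CD25 appear on conventional CD4 and CD8 T cells after stimulation. All of them are measured here beside Cd3e, a chain of the T cell receptor complex that all T cells carry.

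FPKM totals ran from 476111 to 677535 per library. The entry Mir6236 alone made up 16.2% to 20.6% of the total in combination and 15.8% to 19.3% in polyIC. It made up 7.6% to 11.1% in antiPDL1 and 5.0% to 15.7% in control. Read depth is known only in relative terms, from 0.478 to 1 of the deepest library. Ptprc, the gene of CD45 itself, averaged 449 ± 59.4 FPKM in combination, 389 ± 23.7 in polyIC, 311 ± 38.4 in antiPDL1 and 240 ± 29.1 in control (SD, n = 3 each). Summed over 5 markers, hepatocyte RNA ran from 125 to 238 FPKM in combination, 1137 to 1647 in polyIC, 240 to 1584 in antiPDL1 and 878 to 2759 in control. Summed Kupffer cell markers ran from 32.6 to 166 FPKM in combination, 299 to 1307 in polyIC, 529 to 4123 in antiPDL1 and 1141 to 5668 in control. Both lists were therefore lowest where the regulatory T cell genes were highest, and their part in the results was not tested. Some libraries stood apart within their groups. These were antiPDL1 replicate 0, with 2536 FPKM over 15 T cell genes against 1241 and 1008 in the other antiPDL1 libraries, and control replicate 2, with 1374 against 488 and 748. In antiPDL1 replicate 2 the hepatocyte sum was 1584 FPKM against 525 and 240, and the Kupffer sum 4123 against 529 and 1953, in the other antiPDL1 libraries. Its correlation over genes was 0.948 to 0.956 with the controls and 0.923 and 0.933 with its own group. For the regulatory T cell genes named first, level calls that change without 1 of these 3 libraries are given with and without it. Calls on the levels of other single genes, Cd3e and Cd4 included, were not examined in this way.

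In the combination group 6 of the 7 genes rose together, as the values that follow show, so promoters are shown to let their letters be compared. The sequences are the 250 bases before the start of transcription on the plus strand, from RefSeq on the build GRCm38.p6. The deposited values were made on mm9, so these positions do not belong to the table. RefSeq entries matched 6 of the 7 genes. Those for Foxp3, Tnfrsf9 and Tnfrsf18 are shown because each holds a STAT pattern, and those for Tnfrsf4 and Ccr8, the genes with the largest changes, because they hold none of the patterns. Capitals mark letters searched on both strands: TTCNNNGAA, a STAT pattern, TGANTCA, an AP-1 pattern, and GTAAACA, a forkhead pattern. STAT5 acts downstream of interleukin 2, AP-1 downstream of T cell activation, and Foxp3 is itself a forkhead protein.
Foxp3, chrX:7580233-7580482: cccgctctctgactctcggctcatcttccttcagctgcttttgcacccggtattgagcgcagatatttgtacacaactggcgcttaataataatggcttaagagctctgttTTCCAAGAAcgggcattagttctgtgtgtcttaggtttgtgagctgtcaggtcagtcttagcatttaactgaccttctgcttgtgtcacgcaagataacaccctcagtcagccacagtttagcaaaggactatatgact
Tnfrsf9, chr4:150927749-150927998: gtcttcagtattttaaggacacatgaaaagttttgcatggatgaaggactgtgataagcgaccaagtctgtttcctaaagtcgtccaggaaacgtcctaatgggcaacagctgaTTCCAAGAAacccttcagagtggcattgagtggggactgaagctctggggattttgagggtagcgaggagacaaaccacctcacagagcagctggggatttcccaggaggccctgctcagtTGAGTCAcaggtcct
Tnfrsf18, chr4:156026072-156026321: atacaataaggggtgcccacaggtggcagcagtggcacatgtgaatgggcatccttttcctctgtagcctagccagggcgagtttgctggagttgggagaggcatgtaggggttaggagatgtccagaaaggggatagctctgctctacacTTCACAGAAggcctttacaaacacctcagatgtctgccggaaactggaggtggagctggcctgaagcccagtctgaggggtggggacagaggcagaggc
Tnfrsf4, chr4:156013445-156013694: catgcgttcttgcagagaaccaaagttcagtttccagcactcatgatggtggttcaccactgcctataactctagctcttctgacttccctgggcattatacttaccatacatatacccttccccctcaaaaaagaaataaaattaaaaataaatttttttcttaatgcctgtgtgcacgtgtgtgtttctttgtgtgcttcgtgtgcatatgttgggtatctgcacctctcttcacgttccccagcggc
Ccr8, chr9:120091883-120092132: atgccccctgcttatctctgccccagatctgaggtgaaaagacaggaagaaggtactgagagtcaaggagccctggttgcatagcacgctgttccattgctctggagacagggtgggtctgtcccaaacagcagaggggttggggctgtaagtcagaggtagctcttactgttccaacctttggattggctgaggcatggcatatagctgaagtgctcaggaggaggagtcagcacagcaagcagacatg

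The STAT letters TTCCAAGAA stood in both the Foxp3 and the Tnfrsf9 window, beginning 139 and 136 bases before the start. Those of Tnfrsf18 were TTCACAGAA, 99 bases before its start. Of 32851 RefSeq windows of the same length, 7.02% hold STAT letters. Tnfrsf9 also held the AP-1 letters TGAGTCA, found in 6.75% of windows, 15 bases before its start. A second annotated start of Foxp3 and of Tnfrsf9 and the Il2ra window, which are not printed, held none of the patterns. None of the windows held GTAAACA, present in 3.17% of all. These matches are letters only and say nothing of binding.

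Tnfrsf4 and Tnfrsf18 lie next to each other on chromosome 4 with 0 protein-coding genes between them, and Tnfrsf9 lies on the same chromosome. Ikzf2 is on chromosome 1, Il2ra on chromosome 2, Ccr8 on chromosome 9 and Foxp3 on chromosome X. In the RefSeq annotation Foxp3 overlaps Flicr and Ccdc22, Il2ra overlaps Gm39760, Tnfrsf4 overlaps Sdf4 and Tnfrsf18 overlaps Gm16008. The kit was stranded, but whether counting used the strand is not stated, so reads of these overlapping genes may have been shared.

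In the combination group 6 of the 7 genes rose over control, by 1.55 to 3.77 on the log2 scale, while Il2ra did not pass the test. Tnfrsf4 and Ccr8 rose most, Tnfrsf9, Ikzf2 and Foxp3 less, and Tnfrsf18 least. With polyIC alone Foxp3, Ikzf2, Tnfrsf9 and Tnfrsf4 rose, although each of these calls was lost when certain single libraries were left out. The antibody alone gave no call, although Tnfrsf4 and Ccr8 were higher in each of its libraries than in any control. Between combination and polyIC, Tnfrsf4 was the 1 gene that passed, at 4.00 times the polyIC mean, and Foxp3 was at 1.19 times.

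Foxp3 stood at 14.4, 5.34 and 8.50 FPKM in the combination libraries and 9.54, 6.51 and 7.57 in polyIC. It stood at 4.77, 2.24 and 3.32 FPKM in antiPDL1 and 0.958, 1.55 and 2.55 in control. Combination and polyIC overlapped throughout, every library of both lay above every antiPDL1 library, and antiPDL1 overlapped control. The order of the means was 9.40 ± 4.57, 7.87 ± 1.54, 3.44 ± 1.27 and 1.69 ± 0.805 FPKM (SD, n = 3 each) in combination, polyIC, antiPDL1 and control. On log2(FPKM + 1), Foxp3 was higher in combination than in control by 1.90 ± 0.33 (SE; limma adjusted p = 0.003381), a fold of means of 5.58. The polyIC group was higher than control by 1.75 ± 0.33 (adjusted p = 0.01883), a fold of means of 4.67. That call was lost without polyIC replicate 0, polyIC replicate 2, control replicate 0 or control replicate 1 (adjusted p = 0.06163 to 0.104), and without moderation of variances across genes (adjusted p = 0.07228). The antiPDL1 group differed from control by 0.73 ± 0.33 (adjusted p = 0.2931), with a fold of means of 2.04. Combination differed from polyIC by 0.15 ± 0.33 (adjusted p = 0.8499), and from antiPDL1 by 1.17 ± 0.33 (adjusted p = 0.1679).

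Ikzf2, the Helios gene, followed Foxp3 closely. It stood at 11.3, 9.61 and 11.2 FPKM in combination, 8.44, 4.86 and 8.24 in polyIC, 4.87, 1.98 and 3.82 in antiPDL1 and 1.62, 1.24 and 2.92 in control. The combination libraries lay above all others and were close to each other, polyIC lay above control, and polyIC and antiPDL1 met between 4.86 and 4.87 FPKM. Ikzf2 rose by 2.04 ± 0.28 in combination (SE, log2 scale; adjusted p = 0.001749) and by 1.49 ± 0.28 in polyIC (adjusted p = 0.01964) over control. The polyIC call was lost without any 1 of the same 4 libraries (adjusted p = 0.07524 to 0.1105) and without moderation (adjusted p = 0.07087). The difference of antiPDL1 from control was 0.63 ± 0.28 (adjusted p = 0.2941). For Ikzf2 the combination stood 0.55 above polyIC (adjusted p = 0.445) and 1.41 above antiPDL1 (adjusted p = 0.07397). The difference from antiPDL1 passed without antiPDL1 replicate 0 or control replicate 2 (adjusted p = 0.02035 and 0.03177).

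Il2ra was the exception. It stood at 4.48, 3.16 and 4.06 FPKM in combination, 5.10, 4.82 and 5.61 in polyIC, 3.73, 4.77 and 5.53 in antiPDL1 and 3.55, 3.66 and 9.92 in control. Every polyIC library lay above every combination library, the other groups overlapped, and control replicate 2 held the highest value of the series. The combination differed from control by -0.34 ± 0.29 (SE, log2 scale; adjusted p = 0.3999), or by 0.08 without control replicate 2. PolyIC differed from control by 0.0053 and antiPDL1 by -0.13 (adjusted p = 0.9943 and 0.8381). In control replicate 2 the summed B cell markers were also the highest of the series, at 997 FPKM against 338 and 459 in the other controls; the part of B cells in the Il2ra level was not tested.

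**Figure D1:**
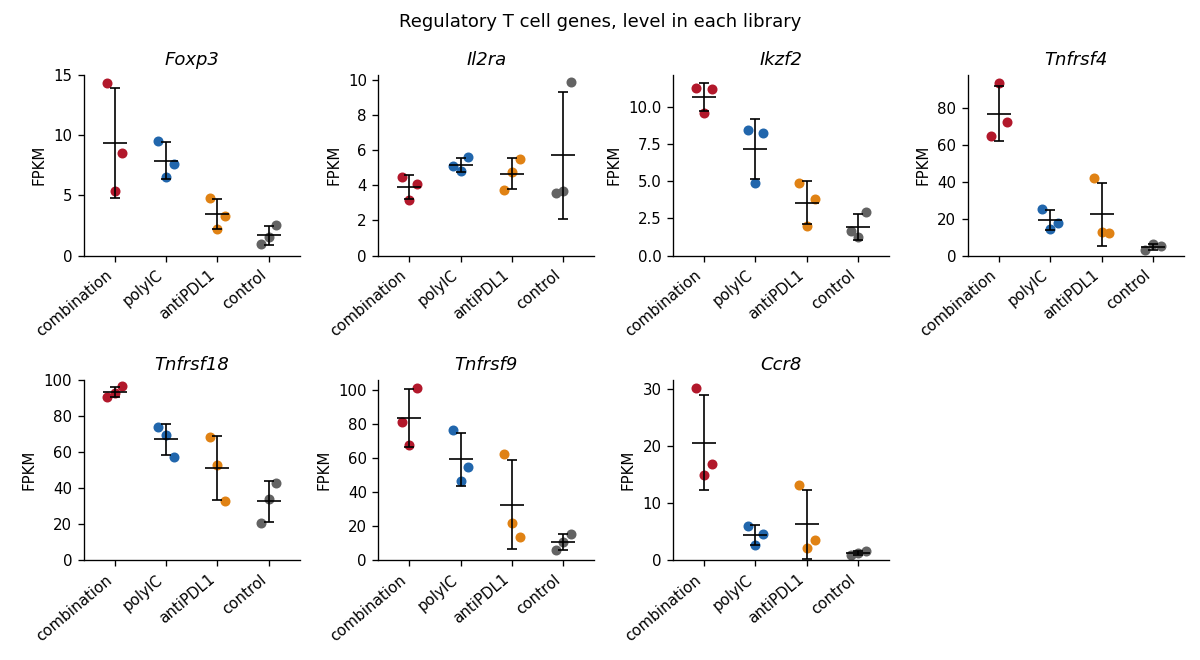
FPKM (vertical axes, linear) of the 7 regulatory T cell genes in the combination, polyIC, antiPDL1 and control groups. Points are libraries and bars are the mean ± SD of 3 libraries. The 3 combination libraries lie above every control for 6 genes, with Tnfrsf4 at 65.0 to 93.5 FPKM against 3.02 to 6.12. For Il2ra combination and control overlap.

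Among the costimulatory receptors, Tnfrsf4 changed most. OX40 RNA stood at 65.0, 93.5 and 72.2 FPKM in combination, 25.2, 14.6 and 17.9 in polyIC, 42.2, 12.7 and 12.4 in antiPDL1 and 3.02, 6.12 and 5.33 in control. Each treated group lay above control without overlap, and the combination lay above both single treatments, which overlapped each other. The means were 76.9 ± 14.8, 19.2 ± 5.44, 22.4 ± 17.1 and 4.82 ± 1.61 FPKM (SD, n = 3 each) in combination, polyIC, antiPDL1 and control. Tnfrsf4 rose by 3.77 ± 0.41 in combination over control (SE, log2 scale; adjusted p = 0.0007495), a fold of means of 15.9. In polyIC it rose by 1.81 ± 0.41 (adjusted p = 0.03869), but leaving out single libraries ended that call in 8 of 12 runs, with adjusted p up to 0.1904. The antiPDL1 group was higher by 1.82 ± 0.41 (adjusted p = 0.1425), a difference of the same size that did not pass the test. It passed without antiPDL1 replicate 2 (adjusted p = 0.01231). The combination was 1.96 ± 0.41 above polyIC (adjusted p = 0.04667), a call that was lost without any 1 of the 3 combination or 3 polyIC libraries or control replicate 1. It was 1.95 ± 0.41 above antiPDL1 (adjusted p = 0.0841), and without antiPDL1 replicate 0 or control replicate 2 that difference passed (adjusted p = 0.002191 and 0.04606).

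Ccr8 showed the same order as Tnfrsf4 at a lower level. It stood at 30.2, 14.9 and 16.8 FPKM in combination, 5.97, 2.61 and 4.69 in polyIC, 13.3, 2.12 and 3.52 in antiPDL1 and 1.02, 1.25 and 1.59 in control. All treated libraries lay above all controls, every combination library lay above the rest, and polyIC and antiPDL1 overlapped. The rise in combination over control was 3.19 ± 0.48 (SE, log2 scale; adjusted p = 0.002107), a fold of means of 16.1. PolyIC and antiPDL1 were 1.20 and 1.37 above control (adjusted p = 0.1712 and 0.2252), and the polyIC difference passed without antiPDL1 replicate 0 (adjusted p = 0.04779). The combination was 1.98 ± 0.48 above polyIC (adjusted p = 0.06972), a fold of means of 4.67. That difference passed when any 1 antiPDL1 library was left out (adjusted p = 0.02816, 0.04442 and 0.04951), which moves the shared estimate of spread. It was 1.82 ± 0.48 above antiPDL1 (adjusted p = 0.1419; 0.00562 without antiPDL1 replicate 0).

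Tnfrsf9 rose in both groups given polyIC. The 4-1BB gene stood at 81.2, 67.8 and 101 FPKM in combination, 76.5, 46.4 and 54.9 in polyIC, 62.1, 22.1 and 13.5 in antiPDL1 and 6.00, 11.0 and 15.4 in control. Combination and polyIC overlapped, both lay above control, and antiPDL1 reached from the control range to the polyIC range. Tnfrsf9 rose by 2.91 ± 0.47 in combination (SE, log2 scale; adjusted p = 0.002707) and by 2.41 ± 0.47 in polyIC (adjusted p = 0.02164), folds of means of 7.74 and 5.50. The polyIC call was lost without any 1 polyIC library, control replicate 0 or control replicate 1 (adjusted p = 0.05142 to 0.1181), and without moderation (adjusted p = 0.0818). In antiPDL1 it was 1.32 ± 0.47 above control (adjusted p = 0.2298; 0.02357 without antiPDL1 replicate 2). The combination was 0.50 above polyIC (adjusted p = 0.6501) and 1.59 above antiPDL1 (adjusted p = 0.1774; 0.01223 without antiPDL1 replicate 0).

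Tnfrsf18 had the highest level of the 7 genes in control and the smallest rise among those called. GITR RNA stood at 90.9, 93.1 and 96.5 FPKM in combination, 74.1, 69.7 and 57.6 in polyIC, 68.3, 52.8 and 32.9 in antiPDL1 and 20.6, 34.3 and 43.1 in control. The combination libraries were close to each other and lay above all others. PolyIC alone left no overlap with control, while antiPDL1 overlapped both polyIC and control. The rise in combination was 1.55 ± 0.29 (SE, log2 scale; adjusted p = 0.004244), a fold of means of 2.86. PolyIC was 1.07 ± 0.29 above control (adjusted p = 0.06521) and passed without antiPDL1 replicate 0, antiPDL1 replicate 2 or control replicate 2 (adjusted p = 0.04368, 0.02326 and 0.01767). The antiPDL1 group was 0.64 above control (adjusted p = 0.2907; 0.03759 without antiPDL1 replicate 2). The combination was 0.48 above polyIC (adjusted p = 0.5053) and 0.91 above antiPDL1 (adjusted p = 0.1997).

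**Figure D2:**
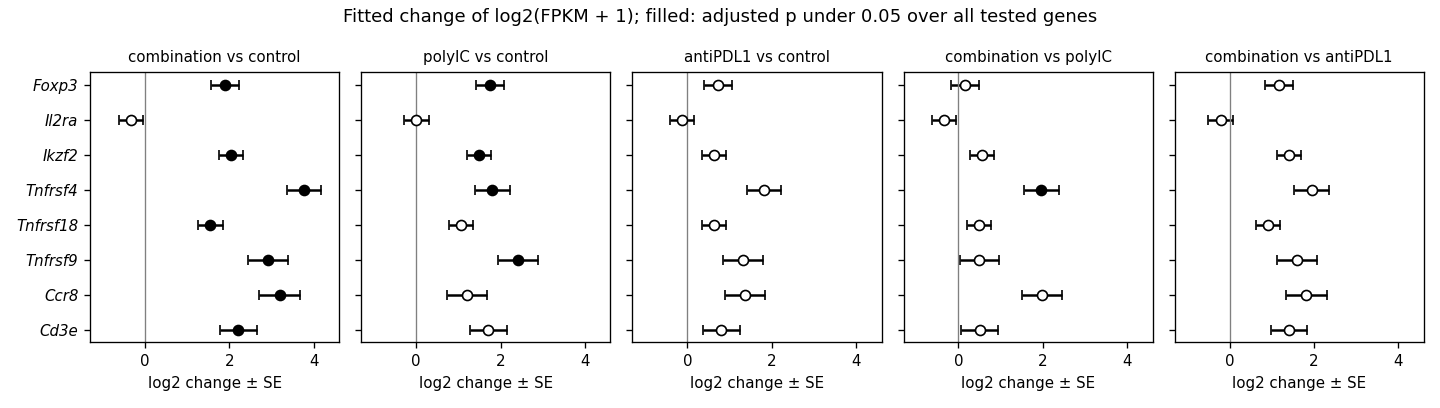
Fitted log2 change ± SE of log2(FPKM + 1) for the 7 genes and Cd3e in each comparison, with filled points where the adjusted p over 11978 genes was under 0.05. In combination against control 6 of the 7 genes are called, from 1.55 for Tnfrsf18 to 3.77 for Tnfrsf4, and Il2ra lies at -0.34.

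Counted together, 6 of the 7 genes passed as higher in combination than in control, where 13.1% of all tested genes did. The median change of the 7 was 2.04, against 0.05 over all tested genes. These 6 calls were kept when any 1 of the 12 libraries was left out. In polyIC against control 4 of 7 passed as higher, beside 2.46% of all genes, with medians of 1.49 and -0.01. That count ran from 0 to 6 when single libraries were left out. It was 0 without polyIC replicate 0, polyIC replicate 2, control replicate 0 or control replicate 1, and 2 without polyIC replicate 1, runs that called 0.259% to 0.827% of all genes higher. In antiPDL1 against control limma called 0 of 7, beside 0.267% of all genes called in either direction. There 6 of 7 had an unadjusted p under 0.05. The share of all genes under that unadjusted threshold was not counted, here or in later comparisons, so such counts have no background. A plain linear model for each gene, without sharing of variance, also called 0. The medians there were 0.73 for the 7 genes and 0.0069 over all genes, and without antiPDL1 replicate 2 the count was 3, where 11.9% of all genes were called higher. In combination against polyIC Tnfrsf4 was the 1 call, beside 0.159% of all genes called higher. In combination against antiPDL1 limma called 0 of 7, beside 0.125% called in either direction. At an unadjusted p under 0.05 there were 6, without a share of all genes to set beside them. Without antiPDL1 replicate 0 the count was 4, namely Ikzf2, Tnfrsf4, Tnfrsf9 and Ccr8, beside 1.75% of all genes called higher, and without control replicate 2 it was 2, beside 0.827%. The comparisons with control share the 3 control libraries and the comparisons of the combination share its 3 libraries.

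An interaction term, the change with polyIC in the presence of the antibody minus that in its absence, called 0 of the 7 genes, none of which had an unadjusted p under 0.05. It called 0.0167% of all genes. Ccr8 and Tnfrsf4 had interaction terms of 0.62 ± 0.68 and 0.14 ± 0.58 on the log2 scale, and Tnfrsf9 and Foxp3 had -0.82 ± 0.66 and -0.58 ± 0.47 (SE, all with adjusted p = 0.9992). These intervals are wide next to the changes themselves. The larger step of Tnfrsf4 and Ccr8 from polyIC to combination is therefore not shown to exceed the step from control to antiPDL1, which was 1.82 and 1.37.

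By the simple count of groups that did not overlap, 6 of 7 genes were higher in every combination library than in any control, as were 25.6% of all tested genes. In polyIC 6 of 7 were higher than control without overlap, beside 16.2% of all genes. In antiPDL1 it was 2 of 7, Tnfrsf4 and Ccr8, beside 4.61%. Against polyIC the combination was higher without overlap for Ikzf2, Tnfrsf4, Tnfrsf18 and Ccr8, beside 13.3% of all genes, and lower for Il2ra, beside 16.1%. Against antiPDL1 it was higher for all but Il2ra, beside 8.29%.

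The T cell genes moved with the 7 genes. Cd3e stood at 345, 306 and 247 FPKM in combination, 312, 164 and 179 in polyIC, 214, 77.2 and 82.7 in antiPDL1 and 40.4, 57.0 and 109 in control. It rose by 2.21 ± 0.44 in combination over control (SE, log2 scale; adjusted p = 0.005294), and was 1.71 higher in polyIC (adjusted p = 0.05518) and 0.80 higher in antiPDL1 (adjusted p = 0.3576). All 15 of 15 T cell genes rose in combination, among them Cd247, Cd8a, Zap70 and Cd3g, beside 13.1% of all tested genes. In polyIC 5 of 15 rose, among them Cd8a, Cd8b1, Lck and Zap70, beside 2.46% of all genes. In antiPDL1 0 did, beside 0.267% of all genes called in either direction. The levels of the regulatory T cell genes are therefore given next as FPKM per 100 FPKM of Cd3e in the same library.

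Relative to Cd3e, Foxp3 and Ikzf2 no longer separated the groups as their levels did; per Cd4, given further on, all treated libraries lay above the controls in Foxp3. Foxp3 stood at 4.17, 1.75 and 3.45 per 100 FPKM of Cd3e in combination, 3.06, 3.96 and 4.24 in polyIC, 2.23, 2.90 and 4.02 in antiPDL1 and 2.37, 2.72 and 2.34 in control. The polyIC libraries lay above the controls, and all other groups overlapped. Mean Foxp3 per 100 FPKM of Cd3e was 3.12 ± 1.24, 3.75 ± 0.617, 3.05 ± 0.903 and 2.48 ± 0.208 in combination, polyIC, antiPDL1 and control (SD, n = 3 each). Exact two-sided permutation tests gave p = 0.6 for combination against control and p = 0.1 for polyIC against control, and 0.1 is the smallest p that 3 against 3 libraries allow. Ikzf2 averaged 3.66 ± 0.783, 3.43 ± 1.03, 3.16 ± 1.28 and 2.96 ± 0.950 per 100 FPKM of Cd3e in the same order, and every pair of groups overlapped.

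Tnfrsf4 and Ccr8 were higher per Cd3e in both groups given the antibody. Tnfrsf4 stood at 18.9, 30.6 and 29.3 per 100 FPKM of Cd3e in combination, 8.09, 8.89 and 10 in polyIC, 19.7, 16.4 and 15.03 in antiPDL1 and 7.47, 10.7 and 4.89 in control. The 6 libraries with antibody lay above the 6 without it, and polyIC lay inside the control range. Ccr8 stood at 8.76, 4.88 and 6.82 per 100 FPKM of Cd3e in combination, 1.91, 1.59 and 2.63 in polyIC, 6.19, 2.74 and 4.25 in antiPDL1 and 2.52, 2.19 and 1.46 in control. Here too the libraries with antibody lay above those without, by a small margin of 2.74 over 2.63, and polyIC overlapped control. Set to other chains of the same receptor complex, that separation of Ccr8 did not hold: antiPDL1 replicate 1 stood at 1.69 per 100 FPKM of Cd3d and 1.12 per 100 FPKM of Cd3g, under control replicate 0 at 2.36 and 1.54 and polyIC replicate 2 at 2.24 and 1.48. For Tnfrsf4 the 6 libraries with antibody lay above the 6 without it per Cd3d and per Cd3g as well, but not per Cd4, as given further on. Mean ratios in combination were 3.41 times control for Tnfrsf4 and 3.32 times control for Ccr8, and in antiPDL1 2.22 and 2.14 times. Each of these 4 differences had an exact two-sided permutation p = 0.1, the smallest possible.

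Tnfrsf9 was higher per Cd3e in both groups given polyIC than in control. It stood at 23.6, 22.2 and 41.0 per 100 FPKM of Cd3e in combination, 24.5, 28.2 and 30.8 in polyIC, 29.0, 28.6 and 16.3 in antiPDL1 and 14.8, 19.3 and 14.1 in control. Combination and polyIC had no overlap with control, and antiPDL1 replicate 2 lay inside the control range. Tnfrsf18 ran the other way, with means of 32.0 ± 6.52, 32.8 ± 9.36, 46.7 ± 19.2 and 50.2 ± 10.4 in combination, polyIC, antiPDL1 and control (SD, n = 3 each). Its highest combination ratio, 39.1, lay just under the lowest control ratio, 39.5. Il2ra per Cd3e was lowest in combination, with means of 1.33 ± 0.308 in combination, 2.57 ± 0.815 in polyIC and 4.87 ± 2.72 in antiPDL1 and 8.11 ± 1.46 in control. Its combination and polyIC ratios lay below every control, and 2 of 3 antiPDL1 libraries, at 1.74 and 6.19 against a lowest control of 6.43, did as well.

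**Figure D3:**
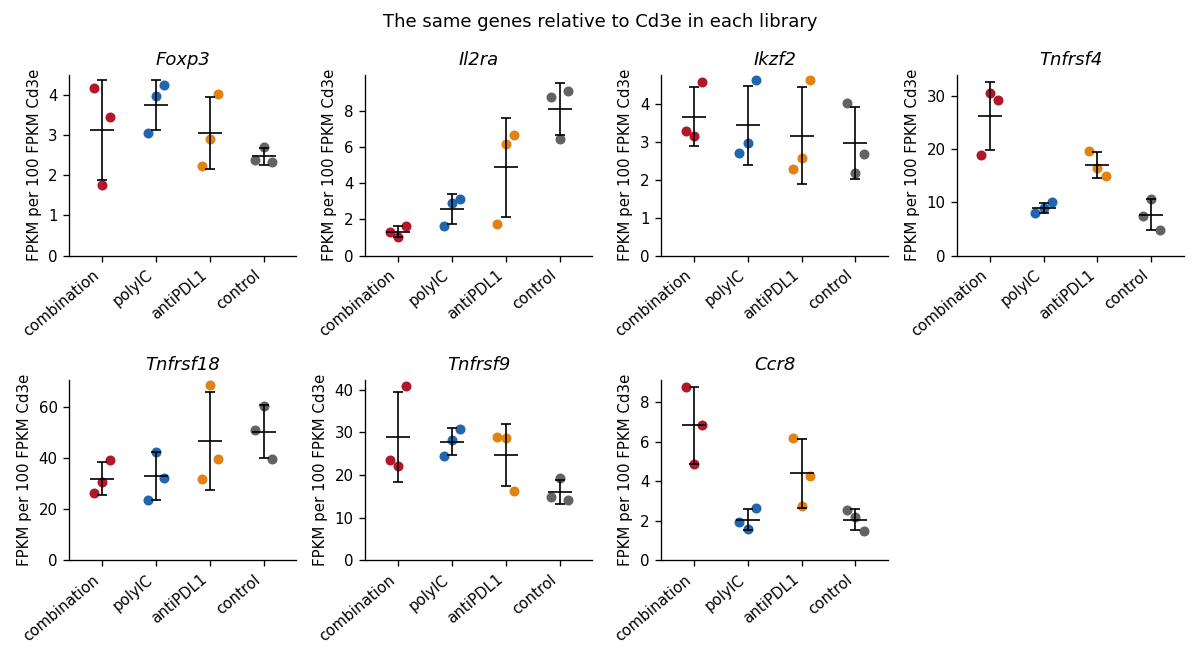
FPKM of each gene per 100 FPKM of Cd3e in the same library (vertical axes, linear), by group. Points are libraries and bars are the mean ± SD of 3 libraries. Tnfrsf4 lies at 15.03 or above in all libraries given the antibody and at 10.7 or below in all others, while the Ikzf2 groups overlap.

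Tests of these ratios need care, since dividing by Cd3e lowers nearly every other gene of the table. In the limma fit per Cd3e, which puts the error of the single gene Cd3e into every row, 94.4% of all tested genes were called lower in combination than in control, 90.1% in polyIC than in control and 77.6% in combination than in antiPDL1. Of the 7 genes Il2ra alone was called lower in these comparisons, by -2.55 (adjusted p = 0.0001197), -1.71 (adjusted p = 0.007807) and -1.62 (adjusted p = 0.02669) on the log2 scale. Its call is thus shared with most of the genes. The last was lost without any 1 combination library, antiPDL1 replicate 1 or antiPDL1 replicate 2, with adjusted p up to 0.1591, and the polyIC call without polyIC replicate 0 (adjusted p = 0.05714).

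Tnfrsf4 per Cd3e was called higher in combination than in control, by 1.55 (adjusted p = 0.005719), beside 0.159% of all genes called higher, in every run that left out 1 library. Ccr8 was at 0.97 and missed (adjusted p = 0.09824), but it passed at 1.63 with a pseudocount of 0.1 (adjusted p = 0.006449), at 1.73 with none (adjusted p = 0.005455) and without moderation of variances (adjusted p = 0.02193), the last 2 settings chosen after the data were seen. Tnfrsf9, Foxp3, Ikzf2 and Tnfrsf18 stood at 0.69, -0.31, -0.17 and -0.66 (adjusted p = 0.1983, 0.6009, 0.7694 and 0.2155). The added 1 FPKM lowers the ratios of genes with low levels: without it Foxp3 and Ikzf2 stood at 0.24 and 0.34 in place of the negative values. Against polyIC the combination was 1.46 higher in Tnfrsf4 and 1.48 in Ccr8 per Cd3e (adjusted p = 0.1761 and 0.2256; Tnfrsf4 passed without control replicate 2, adjusted p = 0.04992), with 2.74% of all genes called in either direction. In antiPDL1 against control these stood at 1.01 and 0.56 (adjusted p = 0.2899 and 0.4332), with 0.985% of genes called.

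Groups that did not overlap in the ratio to Cd3e were also counted. The combination was higher than control for Tnfrsf4, Tnfrsf9 and Ccr8, beside 0.676% of all genes, and lower for Il2ra and Tnfrsf18, beside 92.2%. PolyIC was higher than control for Foxp3 and Tnfrsf9, beside 0.609%, and lower for Il2ra, beside 80.3%. The antiPDL1 group was higher than control for Tnfrsf4 and Ccr8, beside 0.342%. The combination was higher than polyIC for the same pair of genes, beside 0.835%, and lower than antiPDL1 for Il2ra, beside 79.8%.

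Cd4, the coreceptor gene of helper and regulatory T cells, did not move as Cd3e did. Cd4 stood at 83.4, 127 and 89.0 FPKM in combination, 39.8, 40.2 and 36.9 in polyIC, 43.1, 35.3 and 44.2 in antiPDL1 and 26.1, 42.5 and 61.8 in control. Cd4 rose in combination over control by 1.24 (log2; adjusted p = 0.00769) and over polyIC by 1.31 (adjusted p = 0.0443), and differed between polyIC and control by -0.07 (adjusted p = 0.903). Cd8a rose in combination and polyIC over control by 3.18 and 3.01 (adjusted p = 0.00306 and 0.015). Per 100 FPKM of Cd3e, Cd8a averaged 62.0 ± 5.20 in combination, 77.9 ± 7.17 in polyIC, 59.3 ± 20.2 in antiPDL1 and 30.5 ± 0.867 in control. Cd4 averaged 33.9 ± 8.81, 19.3 ± 5.99, 39.8 ± 17.5 and 65.2 ± 8.97 in the same order. The RNA of the treated groups thus held more Cd8a and less Cd4 per Cd3e. It came from a mixture of CD45-positive cells, and which of them carried the Cd4 RNA was not tested. Ratios to Cd4 are therefore not shown to be ratios within T cells. The part of CD8 T cells in the receptor genes was not tested either.

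Per 100 FPKM of Cd4, Foxp3 stood at 17.2, 4.22 and 9.55 in combination, 24.0, 16.2 and 20.5 in polyIC, 11.1, 6.33 and 7.51 in antiPDL1 and 3.68, 3.64 and 4.13 in control. Every treated library lay above every control, although combination replicate 1 did so by a small margin, and the folds of means over control were 2.71, 5.30 and 2.18 in combination, polyIC and antiPDL1. By group means Foxp3 and Tnfrsf4 kept the order of the groups between Cd3e and Cd4, while Il2ra, Ikzf2, Tnfrsf18, Tnfrsf9 and Ccr8 changed it. Ccr8 changed only in that polyIC moved above control. Il2ra averaged 4.14 ± 1.48 per 100 FPKM of Cd4 in combination, 13.3 ± 1.67 in polyIC, 11.6 ± 2.57 in antiPDL1 and 12.8 ± 3.79 in control. Tnfrsf9 averaged 88.2 ± 31.0, 152 ± 38.7, 79.1 ± 58.6 and 24.6 ± 1.43 in the same order (SD, n = 3 each). Ikzf2 averaged 11.2 ± 3.20 in combination, 18.5 ± 5.62 in polyIC, 8.52 ± 2.85 in antiPDL1 and 4.62 ± 1.66 in control (SD, n = 3 each). Tnfrsf4 averaged 77.6 ± 3.602, 49.4 ± 13.6, 54.0 ± 38.3 and 11.5 ± 2.89 per 100 FPKM of Cd4 in the same order. Its antiPDL1 libraries stood at 98.0, 35.9 and 28.1 and its polyIC libraries at 63.5, 36.3 and 48.4. The separation of libraries with and without antibody, seen per Cd3e, thus did not hold per Cd4. Tnfrsf18, lower per Cd3e in combination than in control, was higher per 100 FPKM of Cd4, at 97.0 ± 20.3, 172 ± 15.2, 128 ± 46.2 and 76.5 ± 5.93. Set to Foxp3 itself, Ccr8 stood at 210, 280 and 198 FPKM per 100 FPKM of Foxp3 in combination, 62.5, 40.1 and 62.0 in polyIC, 278, 94.7 and 106 in antiPDL1 and 106, 80.6 and 62.4 in control. The combination libraries lay above all polyIC and control libraries, and antiPDL1 replicate 0 lay among them. Ikzf2 per 100 FPKM of Foxp3 averaged 130 ± 50.8, 90.7 ± 17.1, 102 ± 13.1 and 121 ± 45.0 in combination, polyIC, antiPDL1 and control, and those groups overlapped.

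The ligands of these receptors were measured in the same cells. Il2, the gene of interleukin 2, and Tnfsf18, the GITR ligand gene, averaged 0.482 and 0.151 FPKM in combination against 0.622 and 0.303 in control, and did not reach the level for testing. Of the 4 tested ligand genes 3 rose in combination over control and 1 in polyIC, beside 13.1% and 2.46% of all tested genes. Tnfsf4, the OX40 ligand gene, stood at 6.43, 1.91 and 5.93 FPKM in combination, 1.52, 1.20 and 0.849 in polyIC, 11.7, 0.464 and 0.577 in antiPDL1 and 0.208, 0.683 and 0.241 in control. It rose by 1.96 in combination (log2, limma adjusted p = 0.0495). The antiPDL1 mean came almost wholly from replicate 0, which was also the highest antiPDL1 library in Tnfrsf4. Tnfsf9, the 4-1BB ligand gene, averaged 5.52 ± 0.547 FPKM in combination and 2.48 ± 0.862 in control (SD, n = 3 each), a rise of 0.93 (adjusted p = 0.0163).

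For Ccr8 the ligands are chemokines. Ccl8, a CCR8 ligand in mice, rose by 2.28 in combination and 3.19 in polyIC over control (log2; adjusted p = 0.00891 and 0.012). It averaged 40.03 ± 8.26 FPKM in combination, 75.5 ± 11.1 in polyIC, 19.5 ± 13.6 in antiPDL1 and 9.31 ± 8.57 in control (SD, n = 3 each), so its order differed from that of Ccr8. Ccl1, the other CCR8 ligand, stood at 4.19, 1.54 and 1.26 FPKM in combination, 2.52, 2.22 and 2.89 in polyIC, 44.4, 8.59 and 4.63 in antiPDL1 and 4.00, 3.98 and 6.69 in control. It passed no test on levels, and its highest value was again in antiPDL1 replicate 0.

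**Figure D4:**
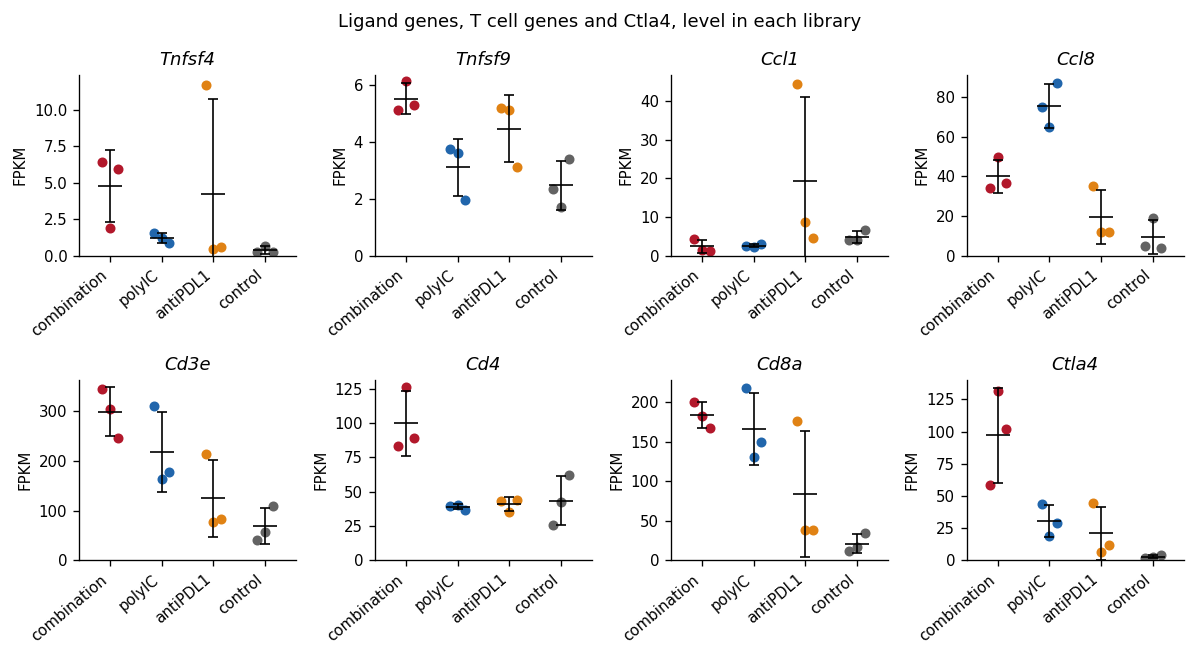
FPKM (vertical axes, linear) of the ligand genes Tnfsf4, Tnfsf9, Ccl1 and Ccl8, of Cd3e, Cd4 and Cd8a, and of Ctla4, by group. Points are libraries and bars are the mean ± SD of 3 libraries. AntiPDL1 replicate 0 holds the highest Tnfsf4, at 11.7 FPKM, and Ccl1, at 44.4 FPKM, of all libraries, and Ccl8 is highest in polyIC.

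Genes that carry signals from these receptors changed less. Of 9 genes for interleukin 2 receptor partners and signalling, 3 rose and 1 fell in combination over control. Their median was 0.45, against 0.05 over all tested genes, of which 13.1% were called higher. Il2rb and Il2rg, the chains that pair with CD25, rose by 1.04 and 0.76 (log2; adjusted p = 0.0386 and 0.0368), and Jak3, the kinase bound to the common chain, by 1.41 (adjusted p = 0.00506). Socs2, a signalling inhibitor, fell by 1.18 (adjusted p = 0.00674). In polyIC limma called 0 of these 9, beside 2.46% of all genes called higher, with 2 at an unadjusted p under 0.05. Of 10 TNF receptor adaptor and NF-kB genes 1 rose in combination, Traf1, an adaptor of OX40 and 4-1BB, by 1.05 (adjusted p = 0.0349), a share below the 13.1% of all tested genes called higher in that comparison. In polyIC 0 passed, with 1 lower than control at an unadjusted p under 0.05.

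Other genes used by regulatory T cells were divided. Of 25 on the list 23 were tested, and 12 rose and 2 fell in combination over control. Their median was 0.62, against 0.05 over all tested genes, of which 13.1% were called higher. Ctla4, an inhibitory receptor that regulatory T cells hold at high levels, averaged 97.0 ± 36.7 FPKM in combination, 30.4 ± 12.3 in polyIC, 21.1 ± 20.7 in antiPDL1 and 2.87 ± 1.31 in control (SD, n = 3 each). It rose by 4.64 in combination and 2.997 in polyIC (log2; adjusted p = 0.00114 and 0.0204). Tigit, another inhibitory receptor, rose by 4.47 and 3.47 (adjusted p = 0.00169 and 0.015), and Klrg1, a lectin-like receptor of effector cells, by 2.20 and 2.66 (adjusted p = 0.00146 and 0.003). Il10, an anti-inflammatory cytokine gene, rose in combination over control by 3.83, over polyIC by 2.64 and over antiPDL1 by 3.37 (adjusted p = 0.00138, 0.0374 and 0.0348). It averaged 50.9 ± 25.2 FPKM in combination, 6.87 ± 1.69 in polyIC, 4.28 ± 3.43 in antiPDL1 and 2.79 ± 2.25 in control. In polyIC 4 of 23 rose and 1 fell, beside 2.46% of all genes called higher. In antiPDL1 limma called 0, beside 0.267% called in either direction, with 6 at an unadjusted p under 0.05. Many of these genes are shared with other activated T cells and NK cells.

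Markers of other cells that can carry these receptors were summed over each list. CD8 T cell markers ran from 854 to 1075 FPKM in combination, 538 to 748 in polyIC, 147 to 747 in antiPDL1 and 43.7 to 146 in control. That is the order of the summed members. Of these markers Gzmk stood at 2.47 times its polyIC mean in combination, but Cd8a at 1.10 times and Cd8b1 at 1.17 times. NK cell markers ran from 75.4 to 146 FPKM in combination, 222 to 392 in polyIC, 57.6 to 114 in antiPDL1 and 58.4 to 143 in control, highest in polyIC alone. By group means Ncr1, Klrb1c, Klra8 and Klra4 were highest in polyIC. Eomes was highest in combination, at 34.5 FPKM against 19.3 in polyIC, 10.2 in antiPDL1 and 4.33 in control. Markers of group 2 innate lymphoid cells ran from 7.41 to 14.8 FPKM over all libraries, with Il5 and Il13 under 1 FPKM in each. The other genes of that list diverged. In combination Gata3 stood at 1.61 times control, Il1rl1 at 0.531 times and Il17rb at 0.239 times. Mature dendritic cell markers ran from 40.5 to 69.1 FPKM in combination and 63.4 to 85.3 in polyIC, against 118 to 195 in antiPDL1 and 169 to 240 in control. Mast cell and basophil markers ran from 0.834 to 14.3 FPKM. Proliferation genes ran from 138 to 177 FPKM in combination, 91.5 to 134 in polyIC, 51.2 to 127 in antiPDL1 and 32.8 to 41.7 in control. By their sums, CD8 T cell and proliferation markers moved with the members, and their part in the members' levels was not tested.

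The 7 genes differed in which other genes they ran alongside. Likeness was measured as the root mean square difference of log2(FPKM + 1), centred on each gene's mean, over the 12 libraries, which share group and T cell content. Foxp3 ran closest to Osbpl3 at 0.29, Rln3 at 0.32 and Ptpn22, a phosphatase that restrains T cell receptor signals, at 0.33, followed by Itm2a and Zbtb32. Its difference from Ikzf2 was 0.31 and from Cd3e 0.37. Ikzf2 ran closest to Prkch at 0.25, a kinase of T cell receptor signalling, then Twsg1, Ncald, Cd28 and Osbpl3. Tnfrsf4 and Ccr8 differed from each other by 0.44, and both had Mt3 and Apobec2 among their closest 5. Tnfrsf4 was also close to Sh2d1a, the adaptor SAP, to Il21, a cytokine of helper T cells, and to S100a4, while Ccr8 was close to Syt11, Cd5 and Tox2.

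Tnfrsf9 ran closest to Cst7 at 0.22 and Nkg7 at 0.22, genes of cytotoxic lymphocytes, and also had Cd8a among its closest 5 at 0.33; its difference from Foxp3 was 0.57. Tnfrsf18 ran closest to Samsn1 at 0.13, then Rab19, Spn, Rom1 and C920025E04Rik. Il2ra ran closest to 2810468N07Rik at 0.10 and to Nsg2, Strbp, Dennd4a and 4930523C07Rik, each of which was highest in control replicate 2. Its difference from Foxp3 was 0.93 and from Cd3e 1.06. The measure favours genes with small changes when a gene itself changed little, as Il2ra did.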

How the data were processed

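Liver CD45-positive cells were profiled by RNA-seq in 12 libraries. The table holds a value for each gene in each library and names no unit; the deposited values were taken as FPKM, which the authors made with Cuffdiff on mm9, per the submitters' processing notes, and which the values bear out (decimals, unequal totals). For the Cuffdiff version, aligner, annotation and scaling: not given in the sources used here. Relative depth was read from steps between low values of 2369 genes and fitted 60 of 66 library pairs; no counting interval could be made.

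The 7 genes, the gene lists and the tests were chosen with earlier results of these data known. The text names the 7 genes, their ligands, Cd3e and Cd4, up to 4 called members of each list, and the 5 nearest genes of each of the 7. Genes with 1 FPKM in 3 libraries were tested, 11978 in all; 22 entries with a whole group at 0 and another at 5 FPKM or more throughout were left out as failed estimates. Groups were compared with limma 3.58.1 (trend, two-sided, all 12 libraries, group as the only term) in R 4.3.3 on log2(FPKM + 1), with Benjamini-Hochberg adjusted p under 0.05 over all tested genes; such fold changes understate those of low genes. Ratios to Cd3e were computed from FPKM, and fitted as the difference of the log2 values. Single ratios were compared by exact permutation tests in scipy 1.17.1. The fits were tested on simulated data. The alternatives are named with their effects in the closing section. Python 3.11.15 with pandas 2.3.3 prepared the tables.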

Additional observations from a re-analysis of the deposited data

How the results depend on the processing

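The count of 6 called genes in combination against control held under every alternative run. The count of 4 in polyIC against control fell to 0 without moderation of variances across genes, and ran from 0 to 6 when 1 library was left out. In antiPDL1 against control, with 0 called, array quality weights gave 4 (and called 10.3% of all genes higher), and single libraries gave 0 to 3. Leaving out control replicate 2 and antiPDL1 replicate 2 together, the double omission, gave 3 and called 1725 of all genes higher. In combination against polyIC, with 1 called, no filter, a mean of at least 5 FPKM, quantile normalization and no moderation gave 0; fits of only the groups compared, no pseudocount and the double omission gave 2; array weights gave 3, of which 2 were higher and 1 lower; single libraries gave 0 to 2. Of all genes in combination against polyIC, fits of only the groups compared called 321 higher, no pseudocount 32 and the double omission 252. Array weights called 1872 higher and 1789 lower there. In combination against antiPDL1, with 0 called, array weights gave 2, beside 347 of all genes called higher, and single libraries 0 to 4. The interaction count was 0 in all runs on levels. No pseudocount, no moderation and the double omission were chosen after the data were seen.

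Replicate numbers did not pair the libraries: correlations of the deviations of same-numbered libraries ran from -0.294 to 0.321. With the replicate number as a block, combination against polyIC had 0 of the 7 genes called, where that fit called 2 of all tested genes. The same fit called 3 of the 7 in polyIC against control and 6 in combination against control. For those counts the share of all genes is not given.

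Per Cd3e, the count of 2 in combination against control became 4 with Cd4 as the denominator (3 higher, 1 lower), 1 with a mean of at least 5 FPKM, which leaves out Il2ra, 6 with array weights and 4 without moderation; with a pseudocount of 0.1 and with none it was 3, Ccr8 being added. In polyIC against control, 1 became 4 higher with Cd4, 0 with the mean filter and 7 with array weights, and single libraries gave 0 to 1. In combination against antiPDL1, 1 became 0 with Cd3d, with the mean filter, without moderation and with the double omission, and 6 with array weights; single libraries gave 0 to 1. In combination against polyIC, 0 became 3 lower with Cd4, 2 with only the groups compared and 6 with array weights, and single libraries gave 0 to 1. There the fit with Cd4 called 10942 of 11978 genes lower, and that of only the groups compared called 57 higher. In combination against control the fit with Cd4 called 80 genes higher and 8927 lower, and the fit without moderation 29 higher and 11255 lower. The fit with the mean filter called 16 higher and 8092 lower there. For a pseudocount of 0.1 and for none, the share of all genes is not given. In polyIC against control the fit with Cd4 called 130 genes higher. In antiPDL1 against control and in the interaction, 0 became 6 with array weights. These counts with array weights are not particular to the 7 genes, since that fit called 99.4% of all genes in combination against control, 99.9% in polyIC against control, 98.9% in antiPDL1 against control, 83.8% in combination against polyIC, 98.7% in combination against antiPDL1 and 74.6% in the interaction.

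Signs turned for small changes. Il2ra in antiPDL1 against control (-0.13) was 0.0471 with quantile normalization, 0.0747 with array weights and 0.18 with the double omission, which also put Il2ra in combination against control (-0.34) at 0.08. Leaving out single libraries gave -0.34 to 0.29, and -0.55 to 0.0796, for this pair, and -0.21 to 0.42 for Il2ra in polyIC against control. Foxp3 in combination against polyIC (0.15) was -0.36 with array weights and -0.18 to 0.46 with single libraries out. Per Cd3e, combination against control, Foxp3 (-0.31) was 0.66 with Cd4, 0.17 with a pseudocount of 0.1 and 0.24 with none, Ikzf2 (-0.17) was 0.80, 0.27 and 0.34, and Tnfrsf18 (-0.66) was 0.31 with Cd4; single libraries gave -0.53 to 0.0229 for Foxp3 and -0.34 to 0.0840 for Ikzf2. In polyIC against control, Il2ra per Cd4 was 0.0762, and Foxp3 per Cd3e (0.04) was -0.12 with the double omission and -0.12 to 0.20 with single libraries out. The cause was not tested. Depth is known only as relative, so precision rests on 3 libraries a group.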

Other observations

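Some genes of the wider list that carry the name of regulatory T cells went the other way or did not pass in combination against control. Lrrc32, which encodes GARP, a surface protein that holds latent TGF-beta, fell to 0.974 ± 0.601 FPKM in combination, against 4.11 ± 2.71 in control (SD, n = 3 each; change of -1.29 on the log2 scale, adjusted p = 0.0187). Cd83, a gene also used by mature dendritic cells and B cells, fell by 1.28 in combination and by 1.30 in polyIC (adjusted p = 0.0091 and 0.035). Nrp1, a receptor of thymus-derived regulatory T cells that endothelial and dendritic cells also carry, averaged 33.2 ± 5.49 FPKM in combination, 31.9 ± 1.78 in polyIC, 33.2 ± 7.58 in antiPDL1 and 34.7 ± 14.8 in control. Entpd1, the CD39 gene, averaged 68.7 ± 10.4, 71.0 ± 4.74, 84.4 ± 9.02 and 79.4 ± 28.4 FPKM in the same order. These genes were picked from the list after their values were seen. Icos, a costimulatory receptor, rose by 0.94 in combination (adjusted p = 0.0106), and per 100 FPKM of Cd3e it averaged 13.1 in combination, 11.0 in polyIC, 23.0 in antiPDL1 and 34.6 in control.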
